A study of Mus musculus with 18 samples.

Results

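The genes described here are the 66 well-expressed genes of mouse colon whose transcripts the deposited table types as long noncoding RNA. A gene was a member when its transcript type was lncRNA, lincRNA, antisense, processed_transcript, bidirectional_promoter_lncRNA, sense_intronic or sense_overlapping alone, and when its mean over 18 libraries was at least 5 FPKM (fragments per kilobase of transcript and per unit of sequencing depth). The table lists 10897 genes, of which 206 carry these types, and 140 of the 206 lay under the minimum. The members comprised 24 lincRNA (intergenic), 23 processed_transcript, 16 antisense and 3 bidirectional_promoter_lncRNA entries. A further 193 genes at 5 FPKM or more carry such a type combined with another and were not taken.

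The label of the set holds for most of its members. Against the GENCODE M21 annotation and the gene symbols, 49 members are noncoding genes, 10 are annotated pseudogenes and 7 carry the symbol of a protein gene (Ifi30, Cct6a, Anxa13, Dlg3, Prpsap2, Rap1gap2 and Afdn). GENCODE M21 types 4 of these 7, Dlg3, Prpsap2, Rap1gap2 and Afdn, as protein-coding genes. The members were chosen by their mean level, so that level is a description. Just inside the minimum lay AI662270 at 5.22, Gm21926 at 5.03 and 2610306M01Rik at 5.02 FPKM, and just outside lay Gm15848 at 4.91, Neat1 at 4.66 and Mgam2-ps at 4.55 FPKM. Malat1, a nuclear RNA that is abundant in many tissues, averaged 3.30 FPKM and is not a member.

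Long noncoding RNAs are transcribed and processed much like messenger RNAs but are not known to be translated. Several serve mainly as hosts: snoRNA host genes carry small nucleolar RNAs in their introns, which guide chemical modification of ribosomal RNA, and their spliced exons are often degraded in the cytoplasm. Many snoRNA hosts begin, like the messenger RNAs of ribosomal proteins, with a terminal oligopyrimidine (TOP) tract. Other long noncoding RNAs are transcribed antisense to a protein gene or from its promoter in the opposite direction.

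The tissue was colon from male C57BL/6J mice aged 10 weeks, with 6 libraries in each of 3 groups. Per the sample labels, GF-AOMS mice were germ-free, received azoxymethane (AOM, a carcinogen that induces colon tumours) and were exposed to cigarette smoke. GF-AOM mice were germ-free and received AOM, and Control mice were wild-type animals with a normal flora in which AOM had induced cancer. The treatment text instead calls Control a normal control, and housing is given as a specific-pathogen-free facility, so the labels leave the contrast with Control ambiguous. Under either reading smoke is what sets GF-AOMS apart from GF-AOM. Whether every library is a different mouse is not written out in the labels, and p-values then describe only the spread among these libraries.

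Libraries held 48.95 to 79.23 M counts, and the 66 members took 0.241% ± 0.0233 of them in GF-AOMS, 0.236% ± 0.0106 in GF-AOM and 0.222% ± 0.0133 in Control (SD, n = 6 each). Counts from 84 ribosomal protein genes made up a share that ran from 5.47% to 27.3% and averaged 14.4% ± 6.99 in GF-AOMS, 15.1% ± 5.14 in GF-AOM and 8.90% ± 3.98 in Control. Control libraries 3 to 6 stood apart in genes of the distal gut. Hoxa13 lay at 0 to 3.05 CPM there and at 24.8 to 53.5 CPM in the other 14 libraries. CPM are counts per M counts after each library total was multiplied by its TMM scaling factor, which ran from 0.721 to 1.155. The labels do not give the position of a sample along the colon, and the colon position term used below is built from Hoxa13 and Hoxb13 alone. Control 3 also went against its male label, with the Y-linked gene Ddx3y at 1.11 CPM against 27.9 to 62.7 CPM in the other 17 libraries. All 7 epithelial and all 6 smooth muscle markers were above 0 in every library. The summed smooth muscle level ran from 2114 to 12170 CPM in GF-AOMS, 3490 to 5683 CPM in GF-AOM and 1530 to 4610 CPM in Control. In bulk tissue, fewer cells of a type and less RNA per cell cannot be told apart.

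The levels within the set were uneven. Of the 66 members, 3 averaged 100 FPKM or more, 9 lay between 20 and 100, 18 between 10 and 20 and 36 between 5 and 10. The median mean level was 9.0 FPKM, against 7.32 FPKM over all genes. Transcript lengths computed from count and FPKM were short, with a median of 1843 bases against 4196 bases over all genes. These lengths serve for comparison only. They can exceed the true length, as for Gm10076, whose 443 computed bases are more than the gene spans. Chromosome 11 holds 15 members, or 22.7%, and 934 genes, or 8.57%, of the whole table.

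Gm10076, a lincRNA gene at chr14:105681828-105682211 (positions match build GRCm38), had the highest mean. It lay at 127 to 547 FPKM in GF-AOMS (median 298), 83.1 to 359 in GF-AOM (median 206) and 60.9 to 271 in Control (median 142). AW112010, a transcript reported to be translated in mouse macrophages, lay at 82.3 to 393 FPKM in GF-AOMS (median 175), 117 to 399 in GF-AOM (median 137) and 74.8 to 219 in Control (median 130). The 3 groups overlapped for both genes, and the medians of both were highest in GF-AOMS. 2410006H16Rik lay at 53.3 to 223 FPKM in GF-AOMS (median 140), 72.5 to 217 in GF-AOM (median 163) and 36.04 to 158 in Control (median 64.9). AW112010, with 7.02%, Cct6a, with 6.05%, and Gsdmcl2, with 5.03%, took the largest shares of the members' counts.

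Of the genes with a protein gene's symbol, Ifi30, a lysosomal thiol reductase, was the highest. It lay at 61.7 to 100.5 FPKM in GF-AOMS (median 86.8), 64.2 to 92.3 in GF-AOM (median 69.0) and 60.8 to 104.7 in Control (median 93.6). Cct6a, a subunit of a chaperonin that folds actin and tubulin, lay at 26.8 to 41.6 FPKM in GF-AOMS (median 37.5), 28.6 to 39.7 in GF-AOM (median 32.8) and 27.1 to 37.7 in Control (median 35.0). Both were among the steadier members. The pseudogene entry Gm5641 lay at 30.6 to 84.8 FPKM in GF-AOMS (median 71.9), 37.5 to 76.0 in GF-AOM (median 59.9) and 48.9 to 85.1 in Control (median 63.1).

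Members varied more between libraries than genes in general. The median coefficient of variation of CPM over the 18 libraries was 44.3% for members and 22.0% for all genes, with members running from 10.7% to 97.6%. It was at least 50% for 23 members (34.9%) and for 10.6% of all genes. Library GF-AOMS 2, which had the highest ribosomal protein share, held the lowest FPKM of 15 members and the highest FPKM of 14 others.

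The 7 members on the list of snoRNA host genes used here varied with the ribosomal protein share of the library. They are Gas5, Snhg1, Snhg6, Snhg8, Snhg18, Zfas1 and Epb41l4aos, and whether members off the list host snoRNAs was not checked. Sequence around the start is shown first for 5 of the 13 members with a C and T tract near the start. Such a match does not show that the RNA begins with a TOP tract. The 5 were picked by hand with the tract and their values known, so they do not represent the members. Of the hosts, the tract was found in Gas5, Snhg8 and Snhg18 and was not found in Zfas1 and Snhg1. Snhg6 and Epb41l4aos were not matched. Each line gives 25 bases before and 25 bases from the RefSeq transcript start (build GRCm38.p6), 5′ to 3′ on the transcribed strand. Capitals mark a tract of C followed by at least 4 C or T bases that begins within 5 bases of that start. The lines are 2410006H16Rik at chr11:62602852-62602901 (plus strand), Gas5 at chr1:161035141-161035190 (plus), Snhg8 at chr3:123508312-123508361 (minus), Snhg18 at chr15:32244638-32244687 (minus) and 2810001G20Rik at chr11:64079459-64079508 (plus).
2410006H16Rik: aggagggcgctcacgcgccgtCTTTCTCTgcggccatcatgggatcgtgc
Gas5: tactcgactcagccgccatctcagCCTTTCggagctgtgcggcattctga
Snhg8: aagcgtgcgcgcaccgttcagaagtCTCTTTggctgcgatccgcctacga
Snhg18: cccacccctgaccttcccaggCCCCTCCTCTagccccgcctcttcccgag
2810001G20Rik: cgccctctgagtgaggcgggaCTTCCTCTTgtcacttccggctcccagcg

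RefSeq promoter entries were matched for 36 of the 66 members, with 47 starts between them. The tract was present at 13 of those 47 starts (27.7%) and on the opposite strand at 13 (27.7%). Over the whole promoter table it was present at 6027 of 32851 starts (18.3%), and at the starts of measured ribosomal protein genes at 32 of 70 (45.7%). Among members whose level followed the ribosomal protein share with a Pearson r of at least 0.7, it was present at 7 of 17 starts (41.2%), against 6 of 30 starts (20%) of the other members. These are counts of matches in short windows, and which start was used in these tissues was not measured.

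Zfas1, an antisense gene and snoRNA host at chr2:167062934-167065862, lay at 10.3 to 48.4 FPKM in GF-AOMS (median 26.5), 12.4 to 56.0 in GF-AOM (median 29.8) and 7.28 to 28.6 in Control (median 12.9). Gas5, first described as a growth-arrest-specific transcript, lay at 9.79 to 18.5 FPKM in GF-AOMS (median 15.1), 9.82 to 29.5 in GF-AOM (median 14.1) and 7.90 to 15.5 in Control (median 9.69). Snhg8 lay at 4.97 to 18.97 FPKM in GF-AOMS (median 10.7), 8.35 to 20.5 in GF-AOM (median 11.6) and 4.53 to 10.4 in Control (median 5.72). For all 3 hosts Control had the lowest median, and the groups overlapped.

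Snhg1 lay at 3.67 to 10.5 FPKM in GF-AOMS (median 7.06), 4.50 to 9.31 in GF-AOM (median 7.62) and 3.00 to 9.37 in Control (median 4.37). Snhg6 lay at 5.83 to 26.2 FPKM in GF-AOMS (median 10.5), 9.92 to 21.8 in GF-AOM (median 14.9) and 5.71 to 16.9 in Control (median 8.03). The same order of medians, with GF-AOM highest and Control lowest, held for both. Snhg18 lay at 26.6 to 78.3 FPKM in GF-AOMS (median 34.3), 33.6 to 68.3 in GF-AOM (median 42.2) and 22.0 to 64.2 in Control (median 32.5). Epb41l4aos lay at 15.9 to 34.4 FPKM in GF-AOMS (median 28.4), 17.5 to 72.1 in GF-AOM (median 27.4) and 10.7 to 35.8 in Control (median 17.2).

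The correlation of log2 CPM with the log2 ribosomal protein share over the 18 libraries lay between 0.767 (Epb41l4aos) and 0.936 (Zfas1) for the 7 snoRNA hosts. Zfas1 had an r of 0.936 and a Spearman rho of 0.889, and r was 0.905 without the 2 libraries farthest from the median share. Snhg1 had an r of 0.935 and a rho of 0.922, with an r of 0.917 without those 2 libraries. Gas5 had an r of 0.882, a rho of 0.889 and an r of 0.838 without them. All 3 had a permutation p of 1e-05 for r and for rho, the smallest that 100000 permutations can give, and adjusted p of 6.4e-05 and 8.4e-05 over all 10897 genes. Within groups, the r of Zfas1 was 0.979 in GF-AOMS, 0.831 in GF-AOM and 0.912 in Control.

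**Figure D1:**
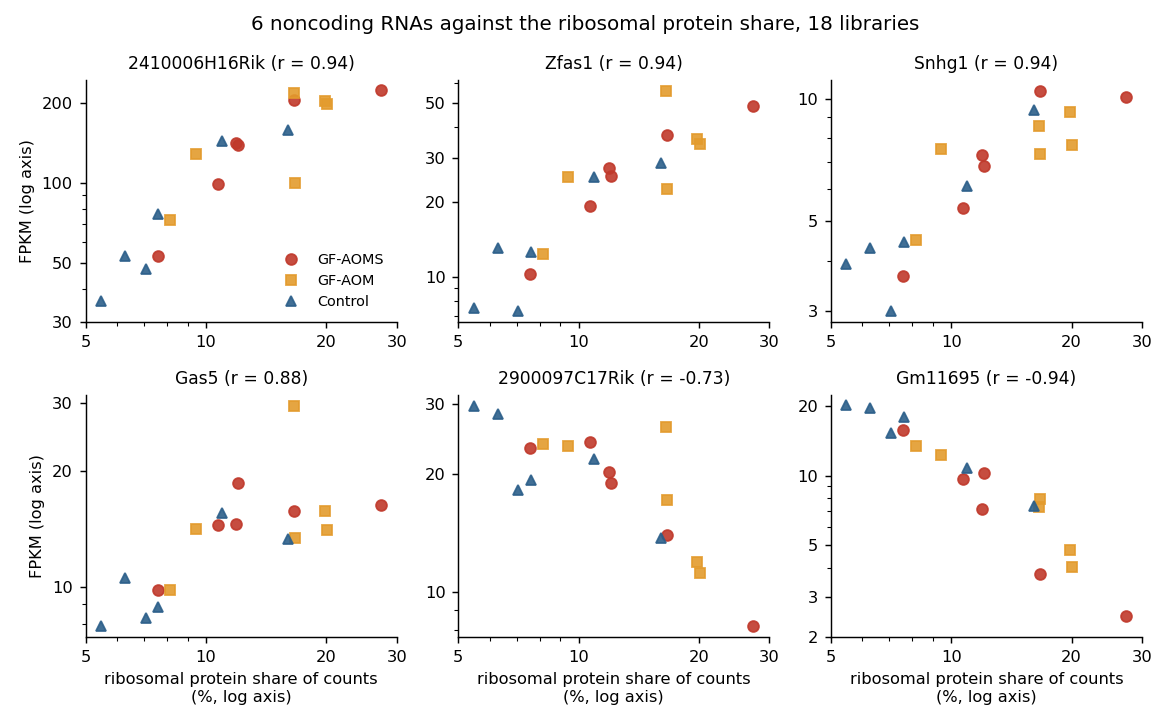
FPKM (log axis) of 6 noncoding RNAs against the percentage of a library's counts that came from 84 ribosomal protein genes (log axis), 1 point per library, with symbols for GF-AOMS, GF-AOM and Control. Levels of 2410006H16Rik, Zfas1, Snhg1 and Gas5 were higher in libraries with a larger share, and those of 2900097C17Rik and Gm11695 were lower.

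The relation reached well beyond the 7 listed snoRNA hosts. Members had a median r of 0.54 with the ribosomal protein share, against -0.06 over all genes. An r of at least 0.7 was found for 26 members (39.4%) and 2062 genes (18.9%), and an r of -0.7 or less for 5 members (7.58%) and 2067 genes (18.97%). All 26 had a positive r within each of the 3 groups, and 24 of them had an r of at least 0.7 without the 2 libraries farthest from the median share. By the permutation test adjusted over all genes, 41 members (62.1%) and 58.3% of all genes passed, 34 of the 41 with a positive and 7 with a negative r. Smooth muscle markers moved with the same share. Of 9 marker lists, the summed level of the 6 smooth muscle markers had an r of 0.721 and a rho of 0.641 with it (permutation p adjusted over the 9 lists = 0.00513 and 0.0463), and r was 0.515 without the 2 farthest libraries. The macrophage list had an r of 0.519 and the endothelium list -0.53 (rho 0.443 and -0.565, adjusted permutation p = 0.0797 for both r, 0.184 and 0.0711 for rho), which did not pass. The remaining lists did not pass either, with r from -0.352 (epithelium) to 0.471 (T and NK cell). The part of these markers in the members' relation was not tested.

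Among the members with the highest r was 2410006H16Rik, whose start is shown above, with an r of 0.939, a rho of 0.920 and an r of 0.914 without the 2 farthest libraries. Bvht, named braveheart for its part in mouse heart development and singled out here after its values were seen, had an r of 0.943, the highest of the set. It lay at 6.77 to 18.6 FPKM in GF-AOMS (median 11.1), 10.3 to 16.3 in GF-AOM (median 15.0) and 5.18 to 16.7 in Control (median 7.18). 2810001G20Rik had an r of 0.936 and Pla2g10os an r of 0.939. Each of these 4 had a permutation p of 1e-05 for r and an adjusted p of 6.4e-05.

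At the other end, Gm11695, an antisense gene at chr11:115462045-115463454, had an r of -0.937, a rho of -0.944 and an r of -0.909 without the 2 farthest libraries (adjusted permutation p of 6.4e-05 for r). Its level was 2.47 to 15.8 FPKM in GF-AOMS (median 8.41), 4.03 to 13.5 in GF-AOM (median 7.60) and 7.42 to 20.2 in Control (median 16.6). The lowest value stood in the library with the largest ribosomal protein share. 2900097C17Rik, known as Norad, a cytoplasmic RNA that binds Pumilio proteins, had an r of -0.732 and a rho of -0.705 (adjusted permutation p = 0.00190 and 0.00434), and r was -0.578 without the 2 farthest libraries. The antisense gene Brip1os also had an r under -0.7, as did Rap1gap2 and Afdn, which carry protein gene symbols and are named after their values were seen.

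The sign of the relation went with transcript length as computed from count and FPKM. Length had a median of 1218 bases for the 26 members with r of at least 0.7, 2218 bases for the 35 between and 7490 bases for the 5 with r of -0.7 or less. The same medians over all genes were 2138 bases at r of at least 0.7 and 6892 bases at r of -0.7 or less. Gm11695, at 469 computed bases, is an exception among the 5. RNA integrity per library was not analysed here, and the part of length or RNA quality in these relations was not tested.

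**Figure D2:**
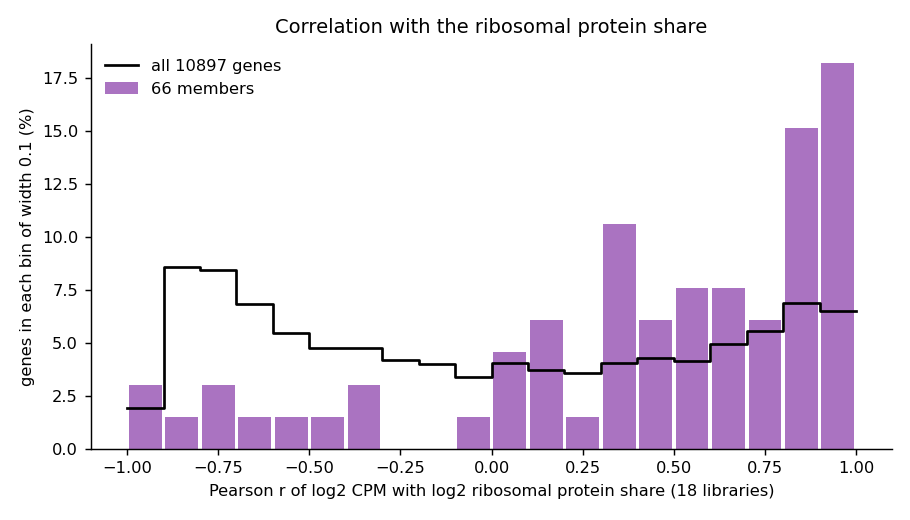
Share of genes (%) in bins of Pearson r between log2 CPM and the log2 ribosomal protein share over 18 libraries, with bars for the 66 members and a line for all 10897 genes. The members' bars are highest above 0.8, and their median r was 0.54 against -0.06 over all genes.

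No member was called in any of the 3 group comparisons by edgeR's quasi-likelihood test at an adjusted p under 0.05 over all genes. In GF-AOMS against GF-AOM, which differ by smoke, 0 of 66 members were called and 0% of all genes. In GF-AOM against Control 0 of 66 were called, against 0.00918% of all genes (1 gene), and in GF-AOMS against Control 0 of 66, against 0.734% (80 genes). At an unadjusted p under 0.05 stood 0 members in GF-AOMS against GF-AOM, 8 (12.1%) in GF-AOM against Control and 7 (10.6%) in GF-AOMS against Control. The same shares over all genes were 1.09%, 15.7% and 16.2%, so the members' shares lay below the background in each comparison in this fit. The order depended on the fit: with a colon position term, members at this p made up 7.58% against 4.30% of all genes in GF-AOM against Control and 7.58% against 4.66% in GF-AOMS against Control. With the ribosomal protein term the shares were 22.7% against 15.4% in GF-AOMS against Control and 7.58% against 11.7% in GF-AOM against Control. Without the 5 libraries with scaling factors under 0.9 they were 24.2% against 21.9% in GF-AOM against Control, 22.7% against 18.75% in GF-AOMS against Control and 7.58% against 3.80% in GF-AOMS against GF-AOM. DESeq2 called 0, 1 and 1 members in the same order of comparisons, against 0.0276%, 2.61% and 3.44% of all genes, and limma called 0 in each. The comparisons share groups, so their values are not independent.

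The smallest differences were those between GF-AOMS and GF-AOM. The median log2 difference of the members was -0.06, with 23 of 66 positive, and over all genes 0.01, with 53.6% positive. Values ran from -0.53 for Gsdmcl2 to 0.62 for Gm10076. The median standard error was 0.32, and the smallest unadjusted p by edgeR was 0.101, for 2610035D17Rik (log2 difference -0.30 ± 0.17 SE, adjusted p = 1.00). This lincRNA lay at 1.99 to 6.15 FPKM in GF-AOMS (median 5.17) and 4.55 to 8.21 in GF-AOM (median 5.23). Oip5os1, known as Cyrano, which pairs with the microRNA miR-7, had a log2 difference of -0.16 ± 0.10 SE (edgeR adjusted p = 1.00) and lay at 7.76 to 12.6 FPKM in GF-AOMS (median 10.98) and 9.98 to 14.6 in GF-AOM (median 11.3). Values of the groups overlapped for both. 2810013P06Rik, transcribed from a bidirectional promoter, had a log2 difference of -0.28 and lay at 4.91 to 7.45 FPKM in GF-AOMS (median 5.76) and 5.96 to 8.30 in GF-AOM (median 7.33).

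Against Control, most members had positive log2 differences in the fit on group alone. The median was 0.30 in GF-AOM against Control, with 47 of 66 positive, where all genes had a median of 0.00 with 49.5% positive. In GF-AOMS against Control the median was 0.27 with 42 positive, and all genes had a median of 0.01 with 51.0% positive. The 49 noncoding genes had medians of 0.47 and 0.35 in the same order, and the 7 genes with protein gene symbols -0.07 and -0.03. With the log2 ribosomal protein share as a term in the fit, the medians of the 66 members were -0.11 in both comparisons, with 25 and 20 members positive. Without Control libraries 3 to 6 they were 0.13 and 0.04, with 42 positive in each. In GF-AOMS against Control the median was also lower without GF-AOMS 2 (0.05) or Control 5 (0.18), with a term for colon position (0.09) and without the 5 libraries with scaling factors under 0.9 (0.08). Other measures moved with the same contrast. Mitochondrial genes took 3.12% ± 0.670 of counts in GF-AOMS, 3.15% ± 0.496 in GF-AOM and 4.59% ± 0.722 in Control (SD, n = 6 each). The 5 plasma cell markers summed to 4851 to 13240 CPM in GF-AOMS, 8127 to 13480 in GF-AOM and 1553 to 8744 in Control, with none at 0 in any library. Their part in the members' values was not tested. The direction of the median differed between fits with and without the ribosomal protein term, and no p is given for it.

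The snoRNA hosts gave the clearest example. A list of 21 such genes had 12 measured, and all 12 had positive log2 differences in GF-AOM against Control (median 0.68, range 0.41 to 1.05) and in GF-AOMS against Control (median 0.55, range 0.38 to 0.96), with 0 called by edgeR. Zfas1 had 1.05 ± 0.49 SE in GF-AOM against Control (edgeR adjusted p = 0.314) and 0.96 ± 0.49 in GF-AOMS against Control (adjusted p = 0.336). Snhg8 had 0.93 ± 0.40 SE (edgeR adjusted p = 0.286) and 0.83 ± 0.40 (adjusted p = 0.312), and Gas5 had 0.66 ± 0.28 SE (adjusted p = 0.288) and 0.55 ± 0.28 (adjusted p = 0.338). With the ribosomal protein term, the 7 members of the list ran from -0.30 to 0.21 in GF-AOM against Control and from -0.41 to 0.04 in GF-AOMS against Control. In GF-AOMS against GF-AOM they ran from -0.28 to -0.01 without that term.

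**Figure D3:**
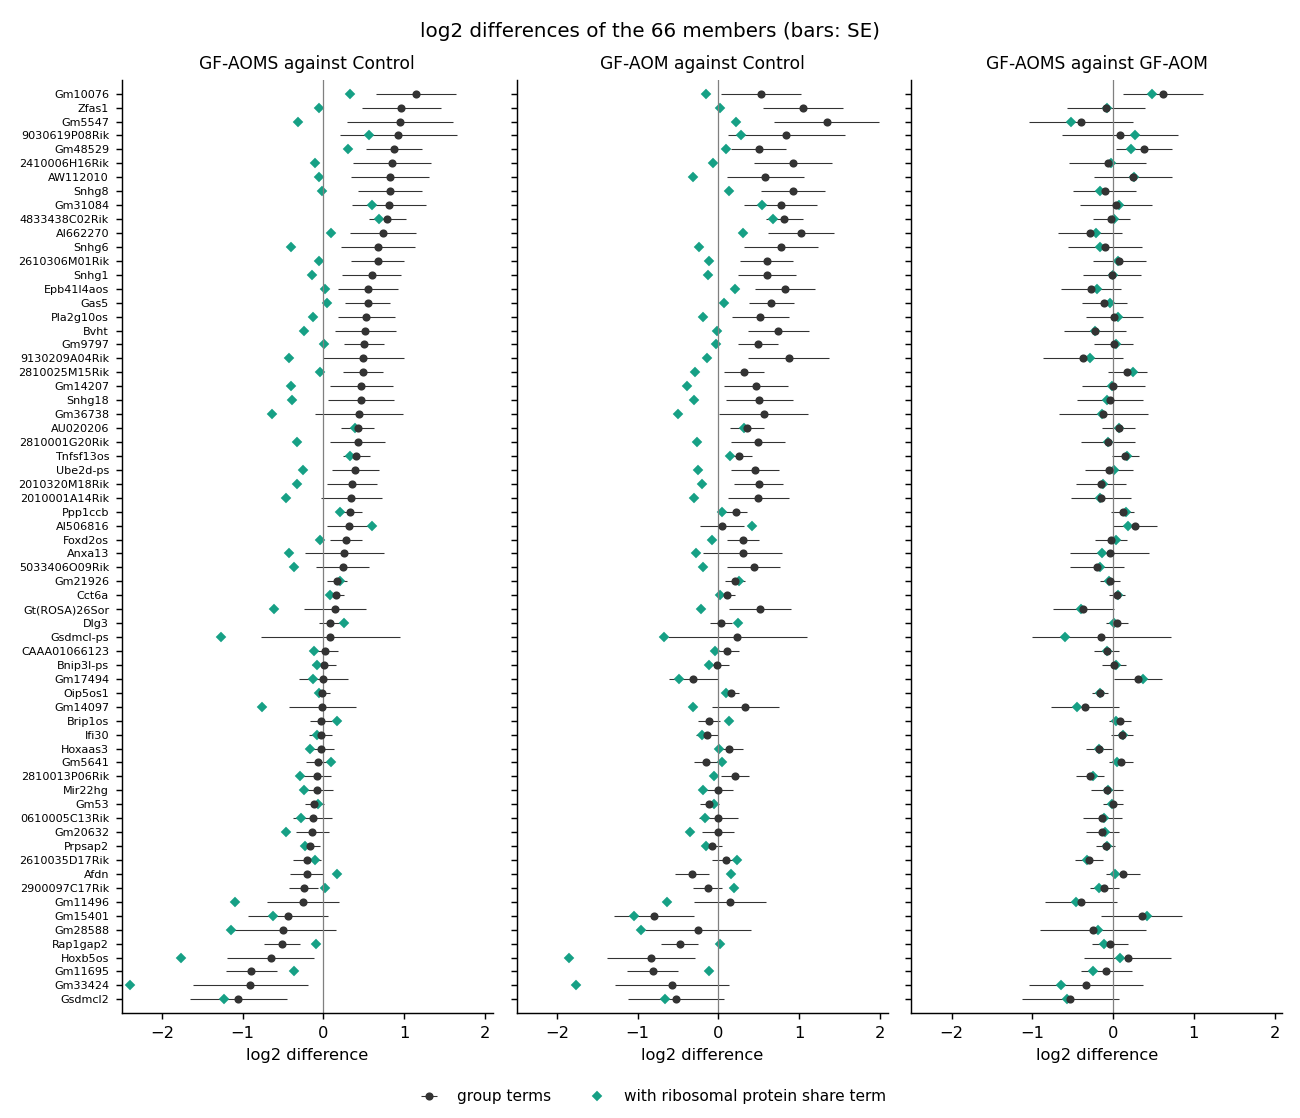
Log2 differences of the 66 members in the 3 comparisons, with dark points and bars for the estimate and its standard error from the fit on group alone, and green diamonds for the estimate with the ribosomal protein share as a term. Most dark points lie right of 0 in the 2 comparisons with Control, and most diamonds lie left of them.

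4833438C02Rik was the member with the smallest p in both comparisons with Control. It is typed as a bidirectional-promoter RNA at chr19:46303591-46305611 on the minus strand and overlaps 1292 bases of Nfkb2, which encodes an NF-kappa-B subunit, on the opposite strand. It lay at 5.02 to 9.34 FPKM in GF-AOMS (median 6.75), 3.32 to 11.7 in GF-AOM (median 5.78) and 3.09 to 4.71 in Control (median 4.21). All 6 GF-AOMS libraries were above all 6 Control libraries, while GF-AOM overlapped both groups. The log2 difference was 0.79 ± 0.23 SE in GF-AOMS against Control, with an adjusted p of 0.116 by edgeR and 0.0283 by DESeq2. In GF-AOM against Control it was 0.82 ± 0.23 SE, with an adjusted p of 0.127 by edgeR and 0.0278 by DESeq2, and GF-AOMS against GF-AOM gave -0.03 ± 0.23 SE (edgeR adjusted p = 1.00). Over the alternatives the log2 difference ran from 0.61 to 0.88 in GF-AOMS against Control and from 0.54 to 1.06 in GF-AOM against Control. The adjusted p reached 0.999 in both under an alternative, and with the ribosomal protein term the differences were 0.69 in GF-AOMS against Control and 0.68 in GF-AOM against Control. Its r with Nfkb2 was 0.302 (rho 0.0444, adjusted permutation p = 0.359 over 4767 neighbouring pairs), and Nfkb2 lay at 29.7 ± 5.74 CPM in GF-AOMS, 34.1 ± 16.6 in GF-AOM and 31.0 ± 3.11 in Control (SD, n = 6 each). The counting strand is not stated, so reads of the overlap cannot be told apart between the genes.

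Ppp1ccb was the only other member whose GF-AOMS and Control libraries did not overlap in CPM, a scale that includes the TMM factors. With 4833438C02Rik that makes 2 of 66 members higher without overlap, against 0.257% of all genes. Ppp1ccb is a transcribed processed pseudogene of a protein phosphatase subunit at chr7:119739926-119742226, and reads from the parent gene may be shared with it. Its level was 24.9 to 27.2 CPM in GF-AOMS and 13.8 to 24.3 CPM in Control, with a log2 difference of 0.33 ± 0.14 SE (edgeR adjusted p = 0.272). On the FPKM scale the groups did overlap, with 11.3 to 17.3 in GF-AOMS (median 16.8), 11.1 to 17.7 in GF-AOM (median 13.8) and 8.81 to 15.6 in Control (median 12.9).

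Other members with small p against Control did not pass. Gm11695 had a log2 difference of -0.90 ± 0.32 SE in GF-AOMS against Control (edgeR adjusted p = 0.192) and -0.81 ± 0.32 in GF-AOM against Control (adjusted p = 0.255). AI662270, a lincRNA, lay at 3.27 to 9.04 FPKM in GF-AOMS (median 5.05), 4.17 to 12.2 in GF-AOM (median 5.72) and 1.77 to 6.58 in Control (median 3.35), with 1.03 ± 0.40 SE in GF-AOM against Control (edgeR adjusted p = 0.256). Gm48529, antisense to the smooth muscle gene Tagln, lay at 12.9 to 40.2 FPKM in GF-AOMS (median 15.6), 9.41 to 29.4 in GF-AOM (median 16.9) and 9.24 to 15.9 in Control (median 12.9). Its log2 difference was 0.88 ± 0.35 SE in GF-AOMS against Control (edgeR adjusted p = 0.238), beside the range of smooth muscle markers given above, whose part in it was not tested. Tnfsf13os lay at 9.45 to 17.3 FPKM in GF-AOMS (median 14.2), 9.63 to 14.2 in GF-AOM (median 11.2) and 7.09 to 15.1 in Control (median 10.3). It had 0.41 ± 0.16 SE in GF-AOMS against Control (edgeR adjusted p = 0.247), and 0.07 with a term for colon position. Each of these genes overlapped between the groups compared.

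The 3 members that averaged 100 FPKM or more had standard errors above the members' median of 0.32. Ifi30 and Gm5641, next in mean level, had smaller ones, 0.14 and 0.15 in GF-AOMS against Control. Gm10076 had 1.15 ± 0.50 SE in GF-AOMS against Control (edgeR adjusted p = 0.275) and 0.62 ± 0.49 in GF-AOMS against GF-AOM (adjusted p = 1.00). AW112010 had 0.83 ± 0.48 SE in GF-AOMS against Control (edgeR adjusted p = 0.389). The groups overlapped for each of these genes. 2410006H16Rik had 0.92 ± 0.48 SE in GF-AOM against Control (edgeR adjusted p = 0.344) and -0.07 in GF-AOMS against GF-AOM.

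**Figure D4:**
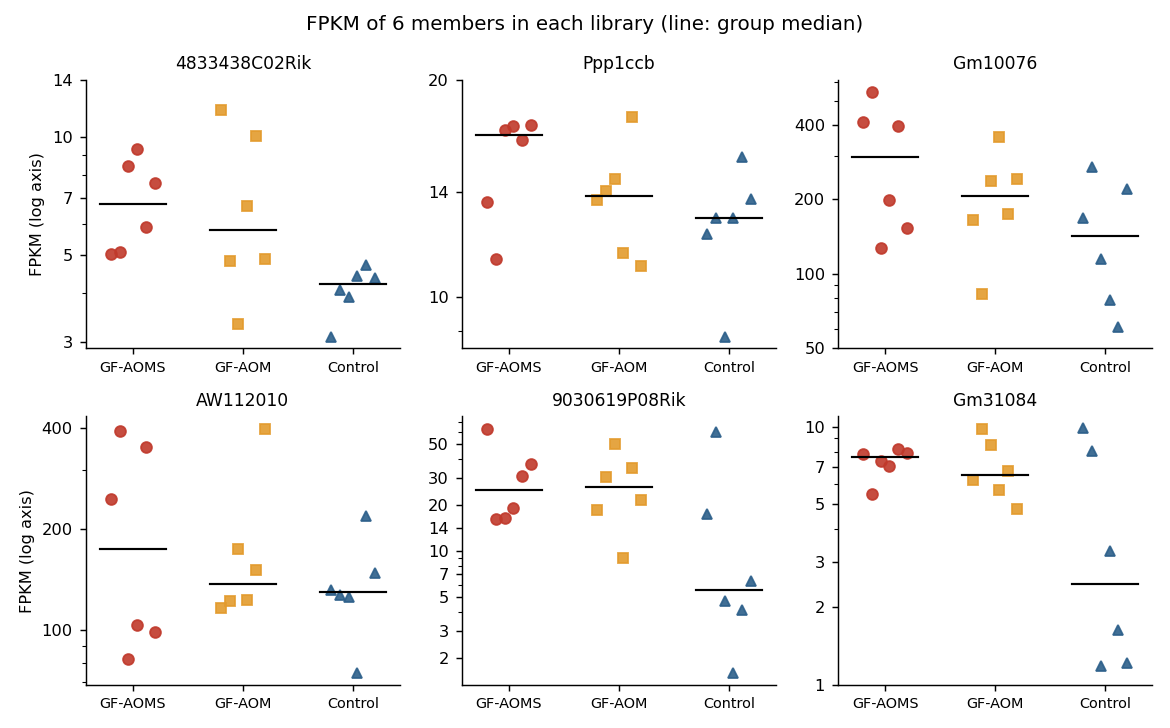
FPKM (log axis) of 6 members in each library of GF-AOMS, GF-AOM and Control, with a line at the group median. The GF-AOMS and Control points of 4833438C02Rik do not overlap, and for 9030619P08Rik and Gm31084 the 4 lowest points are Control libraries.

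A pair of members separated the same 4 Control libraries as the distal gut genes did. The share of all genes that do so is not given here, so the count shows nothing particular to the members. 9030619P08Rik, at chr15:75427606-75431829, lay at 16.2 to 62.9 FPKM in GF-AOMS (median 24.9), 8.92 to 50.3 in GF-AOM (median 26.0) and 1.60 to 59.4 in Control (median 5.52). Control libraries 3 to 6, which lacked the distal genes, held 1.60 to 6.33 FPKM, and the other 14 libraries held 8.92 to 62.9 FPKM. Its log2 difference was 0.93 ± 0.72 SE in GF-AOMS against Control (edgeR adjusted p = 0.514) and 0.84 ± 0.72 in GF-AOM against Control (adjusted p = 0.515). Without Control 2 these were 2.29 and 2.20, with edgeR adjusted p of 0.0367 and 0.0490. With the position term they were 0.06 and -0.02, and over the alternatives the adjusted p ran from 0.0367 to 0.999 and from 0.0490 to 0.999. Gm31084, singled out after its values were seen, lay at 5.50 to 8.22 FPKM in GF-AOMS (median 7.60), 4.80 to 9.76 in GF-AOM (median 6.49) and 1.18 to 9.85 in Control (median 2.47). It too separated Control 3 to 6, with 1.18 to 3.31 FPKM, from the other 14 libraries, with 4.80 to 9.85 FPKM, and its log2 differences of 0.81 and 0.78 were 0.08 and 0.04 with the position term.

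Both antisense members from the Hox clusters, which lie among the genes that pattern the gut along its length, overlapped between Control 3 to 6 and the other libraries. Hoxa11os, which is not a member because its type is combined with another, had log2 differences of 1.70 in GF-AOMS against Control and 1.74 in GF-AOM against Control, and was not called by edgeR. Hoxaas3 lay at 4.24 to 6.68 FPKM in GF-AOMS (median 5.33), 5.06 to 8.79 in GF-AOM (median 5.68) and 5.04 to 7.76 in Control (median 5.41). Hoxb5os lay at 1.39 to 8.34 FPKM in GF-AOMS (median 3.33), 2.59 to 7.37 in GF-AOM (median 3.15) and 2.59 to 13.4 in Control (median 6.97). Its log2 difference was -0.65 ± 0.54 SE in GF-AOMS against Control (edgeR adjusted p = 0.540) and -0.83 ± 0.54 in GF-AOM against Control (adjusted p = 0.408). Gm28588, the member on chromosome Y and singled out after its values were seen, lay at 2.51 to 9.86 FPKM in GF-AOMS (median 5.86), 2.90 to 12.8 in GF-AOM (median 7.08) and 0.237 to 22.8 in Control (median 8.21). Its lowest value was in Control 3, the library low in Ddx3y.

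Members with a large coefficient of variation included Gm33424, Gsdmcl2, Gsdmcl-ps, Gm5547 and Gm15401. Gm33424, a lincRNA at chr13:53016202-53018185, lay at 3.92 to 44.7 FPKM in GF-AOMS (median 6.65), 6.39 to 44.3 in GF-AOM (median 20) and 21.8 to 66.5 in Control (median 32.8). Its log2 difference in GF-AOMS against Control was -0.91 ± 0.71 SE (edgeR adjusted p = 0.520). Without the 5 libraries with scaling factors under 0.9 it was -3.01 ± 0.49 SE (edgeR adjusted p = 0.0185), the range of adjusted p over all alternatives being 0.0185 to 0.999. Those 5 include GF-AOMS 1 and GF-AOMS 2, which held 44.7 and 34.96 FPKM, while the rest of that group held 3.92 to 8.15 FPKM. The difference was -2.40 with the ribosomal protein term. Gm5547 lay at 2.66 to 15.9 FPKM in GF-AOMS (median 3.30), 3.59 to 13.6 in GF-AOM (median 5.83) and 0.629 to 7.45 in Control (median 2.83), and its log2 difference of 1.34 ± 0.66 SE in GF-AOM against Control did not pass (edgeR adjusted p = 0.327). Gm15401, antisense to the transcription factor gene Tcf7l1, lay at 1.85 to 12.4 FPKM in GF-AOMS (median 4.16), 2.05 to 6.36 in GF-AOM (median 3.88) and 2.71 to 18.2 in Control (median 4.14).

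The gasdermin C locus on chromosome 15 gave a pair of members. Gsdmcl2 lay at 6.02 to 50.5 FPKM in GF-AOMS (median 16.7), 6.33 to 80.8 in GF-AOM (median 21.4) and 20.6 to 82.0 in Control (median 46.1). Gsdmcl-ps, like Gsdmcl2 an annotated pseudogene, lay at 0.594 to 18.2 FPKM in GF-AOMS (median 2.61), 0.578 to 14.5 in GF-AOM (median 5.89) and 1.15 to 11.6 in Control (median 5.47). Gsdmcl2 had the lowest log2 difference of the set in GF-AOMS against Control, -1.05 ± 0.60 SE (edgeR adjusted p = 0.383). Gasdermin C genes are related copies, so reads may be shared between them and their counts are uncertain. Their sequences were not compared here.

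Of the remaining members with a known role, Mir22hg, host of the microRNA miR-22, lay at 6.12 to 13.2 FPKM in GF-AOMS (median 9.82), 6.87 to 13.98 in GF-AOM (median 9.76) and 8.85 to 12.0 in Control (median 11.5). 2900097C17Rik lay at 8.19 to 24 FPKM in GF-AOMS (median 19.5), 11.2 to 26.2 in GF-AOM (median 20.3) and 13.7 to 29.8 in Control (median 20.5). Their log2 differences lay between -0.24 and -0.01 in all 3 comparisons. No gene of the X inactivation centre among the 4 listed was measured.

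Members were also compared with the nearest gene. A neighbour within 5 kb was present for 35 members, with only genes of the table counted as neighbours. The Pearson r of log2 CPM over the 18 libraries was computed for all 4767 such pairs of a gene and its nearest gene. Genes nearest to each other enter from each side, and some members share a neighbour, so the pairs are not all distinct. By a permutation test adjusted over those pairs, 20 of the 35 members (57.1%) and 33.8% of all pairs passed, 10 of the 20 with a positive and 10 with a negative r. Pairs overlapping on opposite strands had a median r of 0.40 (16 members) against 0.05 over all such pairs. Divergent pairs, which start back to back, had a median r of -0.60 (9 members) against 0.06 over all such pairs. In all 10 negative pairs that passed, the member had a positive and the neighbour a negative r with the ribosomal protein share. These pairs share that variable. Positive pairs shared it too where both genes followed the share in the same direction, as for Pla2g10os, Gm48529 and Brip1os below. Its r was near 0 for Gsdmcl2 (-0.07) and its neighbour Gsdmc4 (0.007). The part of the share in these pairs was not tested.

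Among overlapping pairs, Pla2g10os and Pla2g10, which encodes a secreted phospholipase, had an r of 0.945 and a rho of 0.922 (adjusted permutation p = 1.95e-04 and 3.38e-04). Pla2g10os lay at 5.22 to 12.7 FPKM in GF-AOMS (median 9.03), 6.06 to 11.9 in GF-AOM (median 8.48) and 4.30 to 11.7 in Control (median 5.43). Pla2g10 averaged 142.6 ± 45.4 CPM in GF-AOMS, 150.0 ± 48.0 in GF-AOM and 100.2 ± 36.1 in Control (SD, n = 6 each), and its own r with the ribosomal protein share was 0.934. The pair overlaps by 1148 bases.

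Gm48529 lies wholly across from Tagln, which encodes transgelin, an actin-binding protein of smooth muscle, with 3627 bases shared, and had an r of 0.873 and a rho of 0.808 (adjusted permutation p = 1.95e-04 and 0.00127). Tagln averaged 1322 ± 1128 CPM in GF-AOMS, 1110 ± 284 in GF-AOM and 652 ± 319 in Control (SD, n = 6 each). The r with the ribosomal protein share was 0.638 for Gm48529 and 0.817 for Tagln. Brip1os and Med13, a subunit of the Mediator complex, overlap by 37411 bases and had an r of 0.845 and a rho of 0.887 (adjusted permutation p = 1.95e-04 and 6.22e-04). Brip1os lay at 3.63 to 10.7 FPKM in GF-AOMS (median 8.59), 5.08 to 8.78 in GF-AOM (median 7.60) and 6.28 to 10.3 in Control (median 8.08). Its r with the ribosomal protein share was -0.764, and that of Med13 was -0.866. The same limit on strand holds for these overlaps. Gsdmcl2 and Gsdmc4 had the highest r of all member pairs, 0.982. Reads may be shared between these related genes, which was not checked.

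The lowest r was that of 2810001G20Rik and Cox10, a gene of heme A synthesis, whose RefSeq starts lie 12 bases apart on opposite strands at chr11:64079484 and chr11:64079472. The r was -0.875 and the rho -0.825 (adjusted permutation p = 1.95e-04 and 7.57e-04), and r was -0.786 without the 2 libraries farthest from the median. 2810001G20Rik lay at 5.34 to 14.4 FPKM in GF-AOMS (median 8.69), 6.36 to 11.5 in GF-AOM (median 10.0) and 4.20 to 10.6 in Control (median 7.23). Cox10 averaged 30.7 ± 10.0 CPM in GF-AOMS, 28.5 ± 7.37 in GF-AOM and 33.9 ± 8.20 in Control (SD, n = 6 each). The r with the ribosomal protein share was 0.936 for 2810001G20Rik and -0.883 for Cox10. 2010320M18Rik and Pik3r2, a regulatory subunit of phosphoinositide 3-kinase, start 102 bases apart and had an r of -0.804 and a rho of -0.804 (adjusted permutation p = 7.53e-04 and 0.00137). 2010320M18Rik lay at 13.2 to 26.9 FPKM in GF-AOMS (median 17.8), 15.3 to 27.3 in GF-AOM (median 21.1) and 11.1 to 22.8 in Control (median 15.6).

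**Figure D5:**
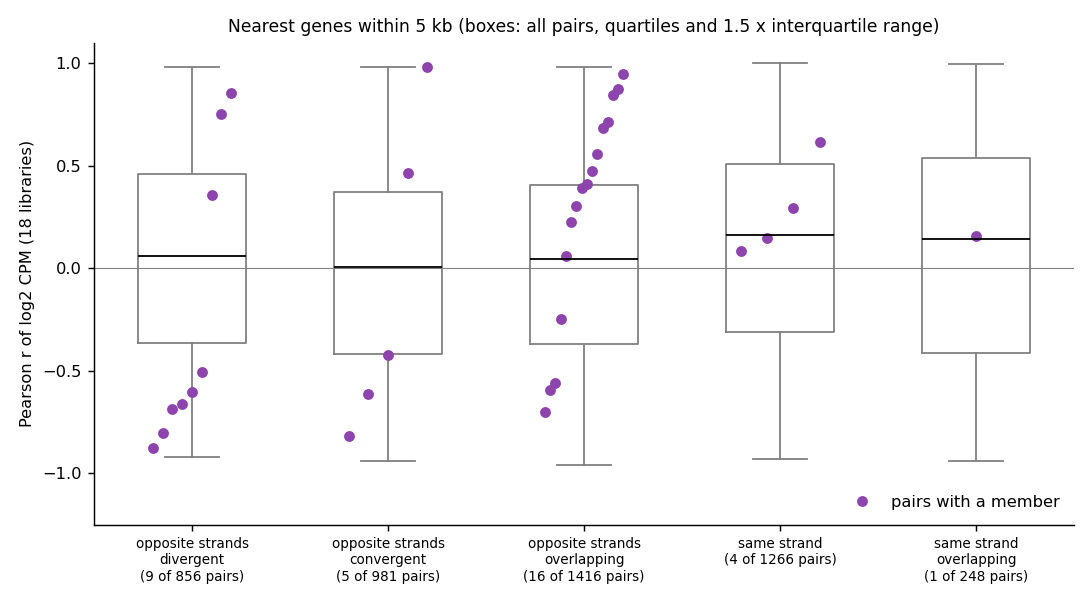
Pearson r of log2 CPM over 18 libraries between each gene and its nearest gene within 5 kb, by arrangement, with boxes for all pairs of the table (median, quartiles and whiskers) and points for the 35 pairs with a member. Points of overlapping opposite-strand pairs lie mostly above the box median, and 6 of the 9 divergent points lie under -0.5.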

How the data were processed

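Colon RNA of 18 libraries was ribosomal RNA-depleted and sequenced with strand kept, per the labels' protocols. The deposited table holds whole-number read counts and FPKM values that the authors computed for the same 10897 genes. Per the submitters' processing notes, featureCounts, DESeq2 and build GRCm39 were used, but the table's positions match GRCm38. The counting strand is not given in the sources used here. Every gene had at least 1 FPKM in at least 15 libraries. Depth was 48.95 to 79.23 M counts (mean 56.16 M, SD 7.41 M).

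A single fit of all libraries used edgeR 4.0.16 (R 4.3.3; TMM scaling, quasi-likelihood test, two-sided, 15 residual degrees of freedom), with Benjamini-Hochberg adjustment over all genes and calls at an adjusted p under 0.05. On simulated counts for a pair of groups, 96.0% of genes changed by 2.0-fold and 54.0% of those changed by 1.5-fold were recovered. The simulation gave all genes the same dispersion. The real spread differed between genes, with a median coefficient of variation of 44.3% for members and 22.0% for all genes. The simulated shares therefore do not give the power to call members. Alternatives were DESeq2 1.42.0, limma 3.58.1 on log2(FPKM + 1) and log2(FPKM + 0.1), other scalings and filters, the 2 groups alone, a replicate block, terms for colon position (Hoxa13 and Hoxb13 levels) and ribosomal protein share, and leaving out each library. Fits without Control 3 to 6, and without the 5 libraries with TMM factors under 0.9, were chosen after seeing the data. Permutation tests of correlations (two-sided, 100000 permutations) were also added then, as these had been planned as descriptions. They covered 10897 genes and 9 marker lists for the ribosomal protein share, and 4767 neighbouring pairs, in Python 3.11.15 with scipy 1.17.1.

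Named genes were the 10 members with the highest mean, the 5 with the smallest p per comparison, members of lists of noncoding RNA roles, the 5 with the largest coefficient of variation, and the 5 highest and 3 lowest correlations with a neighbour. A result that this rule takes is not reported here. Any other member singled out for a group difference or a correlation is marked as chosen after its values were seen. Genes named to describe the limits and annotation of the set are not marked. The members and lists were chosen with earlier results of these data known. Promoter sequences are RefSeq's, build GRCm38.p6.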

Additional observations from a re-analysis of the deposited data

Results flagged for a closer look

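In 6 of 120 group and gene combinations tested (Dixon's test, 6 libraries each) 1 library stood far from the other 5, and chance alone gives about 1 in 20. AW112010 lay at 398.8 FPKM in GF-AOM 6 and at 116.9 to 174.2 FPKM in the other GF-AOM libraries. Epb41l4aos, a snoRNA host, lay at 72.08 FPKM in GF-AOM 1, against 17.48 to 30.23 FPKM in the rest of its group, and Gas5 lay at 29.49 FPKM in the same library, against 9.821 to 15.68 FPKM. Hoxaas3 lay at 8.786 FPKM in GF-AOM 2, against 5.055 to 6.086 FPKM. Gm5547 lay at 15.87 FPKM in GF-AOMS 2, against 2.657 to 5.072 FPKM. 9030619P08Rik lay at 59.38 FPKM in Control 2, a library with the distal colon genes, against 1.595 to 17.37 FPKM in the other Control libraries.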

How the results depend on the processing

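Among members, DESeq2 called 1 gene in GF-AOM against Control and 1 in GF-AOMS against Control (4833438C02Rik in both). Leaving out 1 library gave 0 to 1 calls in both, the 1 being 9030619P08Rik without Control 2, and 0 in GF-AOMS against GF-AOM. Without the 5 libraries with TMM factors under 0.9, 1 member (Gm33424) was called in GF-AOMS against Control. Its highest GF-AOMS values, in GF-AOMS 1 and GF-AOMS 2, were among those left out.

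Over all genes, GF-AOM against Control gave 284 calls with DESeq2, 132 without those 5 libraries, 0 with limma at either pseudocount, 0 with only the 2 groups, 0 with the colon position term and 0 with the ribosomal protein term. Leaving out 1 library gave 0 to 356, the 356 without Control 2. GF-AOMS against Control gave 375 with DESeq2, 47 with upper-quartile scaling, 17 and 16 with limma on log2(FPKM + 1) and log2(FPKM + 0.1), and 277 without the 5 libraries. It gave 0 with only the 2 groups, with the colon position term, with the ribosomal protein term and without Control 3 to 6. Leaving out 1 library gave 0 to 493, the 493 without Control 2. GF-AOMS against GF-AOM gave 3 with DESeq2, 1 with the ribosomal protein term, 1 without the 5 libraries and 0 to 0 on leaving out 1 library.

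The members' median log2 difference turned negative with the ribosomal protein term in both comparisons with Control (-0.113 in GF-AOM against Control and -0.11 in GF-AOMS against Control), and on leaving out 1 library it ran from 0.228 to 0.380 in GF-AOM against Control and from 0.0521 to 0.364 in GF-AOMS against Control. In GF-AOMS against GF-AOM it ran from -0.241 to 0.0414, above 0 without GF-AOMS 3 (0.0314), GF-AOMS 5 (0.0140), GF-AOM 3 (0.0414) or GF-AOM 6 (0.00197). The causes were not tested.

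For 36 named genes, 3152 values under alternatives had the reported direction and side of the threshold, 191 uncalled values changed sign (30 of them with the ribosomal protein term, 10 with the colon position term) and 5 passed where the fit reported above had not. The set had 160 genes at a minimum mean of 2 FPKM and 30 at 10. Without AW112010 the members' share in GF-AOM was 0.219%. The members' share ran from 0.236% to 0.246% in GF-AOMS, 0.234% to 0.240% in GF-AOM and 0.218% to 0.225% in Control on leaving out 1 library.

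Deviations of log2 CPM from the group means correlated between -0.619 and 0.517 for same-numbered libraries of different groups. These values, of either sign, do not settle whether the numbers mark a pairing. With the replicate block 0 members were called, and all-gene calls were 2 in GF-AOM against Control and 33 in GF-AOMS against Control. With 6 libraries a group and a median standard error of 0.32, differences of variable members may be missed, and not only small ones. Zfas1, with a log2 difference of 1.05 in GF-AOM against Control, was not called by edgeR.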
